A study of Mus musculus with 24 samples.

Results

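The 7 genes described here encode the sterol regulatory element-binding proteins (SREBPs) and the proteins that process them: Srebf1, Srebf2, Scap, Insig1, Insig2, Mbtps1 and Mbtps2. They were taken by symbol from the 32719 genes of the count files, and all 7 were among the 15599 genes tested. RNA was sequenced from primary cortical astrocytes, glial cells cultured from the cortex of newborn mouse pups that carry floxed insulin receptor (IR) alleles. IRKO cells received adenovirus encoding Cre:GFP, which deletes the floxed allele, and IRflox cells received adenovirus encoding GFP alone, so genotype and Cre virus cannot be told apart. After 5 days and an overnight serum starvation, both kinds of cells were treated for 6 h with vehicle, with insulin (100 nM) or with IGF-1 (100 nM), which made 6 groups of 4 libraries each. Each group shares the floxed background, an adenovirus infection, GFP and the starvation. Cre came from a virus and not from a cell type promoter, so any other cell of the culture could be infected too. How many pups or cultures stand behind the 4 libraries of a group is not stated in the labels. The p-values measure how these libraries scatter, and that scatter may be technical only.

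SREBPs are made as inactive precursors in the membrane of the endoplasmic reticulum, where SCAP, a sterol sensor, binds them. When sterols are scarce, SCAP carries the precursor in COPII vesicles to the Golgi, where site-1 protease (Mbtps1) and site-2 protease (Mbtps2) cut it and free the part that enters the nucleus. When sterols are abundant, INSIG-1 or INSIG-2 holds the SCAP-SREBP complex in the endoplasmic reticulum. SREBP-2 (Srebf2) mainly drives cholesterol synthesis and uptake, and SREBP-1 (Srebf1) mainly drives fatty acid synthesis. Insig1 is itself an SREBP target. In liver, insulin is known to raise SREBP-1c and to lower a liver form of Insig2 mRNA. In the brain, astrocytes make much of the cholesterol that neurons use.

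Promoter sequence is shown for the 3 genes that rose with both ligands and for Insig2, 1 of the 3 that fell. SREBPs are known to bind the promoters of several of these genes. Scap and Mbtps1, which also fell, are not shown. Sequences are from RefSeq on GRCm38.p6, which held 12 start windows for the 7 genes (3 for Srebf1, 3 for Insig2, 2 for Scap and 1 for each other gene). Each is written 5′ to 3′ on the strand of the gene and ends before any annotated exon of that gene. Capitals mark matches on either strand to CCAAT (the NF-Y box), CACGTG (an E-box) or TCACCC, a short form of the sterol response element that was added to the search after the windows had been read. Srebf2 is shown at chr15:82147019-82147180 (+ strand), Insig1 at chr5:28071162-28071362 (+ strand), the innermost Srebf1 start at chr11:60210472-60210721 (- strand) and the middle Insig2 start at chr1:121328025-121328274 (- strand).
Srebf2: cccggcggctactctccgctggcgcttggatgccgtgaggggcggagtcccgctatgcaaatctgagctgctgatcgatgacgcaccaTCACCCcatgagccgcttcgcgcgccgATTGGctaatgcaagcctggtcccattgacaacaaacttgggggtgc
Insig1: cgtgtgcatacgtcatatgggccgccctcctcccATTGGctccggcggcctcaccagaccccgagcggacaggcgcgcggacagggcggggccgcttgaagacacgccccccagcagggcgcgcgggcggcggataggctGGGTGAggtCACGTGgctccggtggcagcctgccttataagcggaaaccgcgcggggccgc
Srebf1: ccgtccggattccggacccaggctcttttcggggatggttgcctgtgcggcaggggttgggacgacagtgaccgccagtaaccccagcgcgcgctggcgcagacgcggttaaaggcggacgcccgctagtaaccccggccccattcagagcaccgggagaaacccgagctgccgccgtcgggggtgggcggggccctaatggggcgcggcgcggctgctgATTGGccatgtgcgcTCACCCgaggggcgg
Insig2: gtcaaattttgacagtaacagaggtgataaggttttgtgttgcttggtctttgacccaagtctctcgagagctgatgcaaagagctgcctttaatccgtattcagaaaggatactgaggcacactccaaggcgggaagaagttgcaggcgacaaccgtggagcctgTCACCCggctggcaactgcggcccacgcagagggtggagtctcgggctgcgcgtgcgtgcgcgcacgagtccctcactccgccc
Positions below count from the RefSeq start, with the base before it as −1. TCACCC began at −162 in the Srebf2 window and at −15 in the innermost Srebf1 window. Its reverse complement began at −110 in the Insig1 window. In each of these 3 windows the reverse complement of CCAAT was also present, at −135, −30 and −216. The Insig1 window held CACGTG at −101, close to that match. The middle Insig2 window held TCACCC at −84 and neither CCAAT nor CACGTG. The matches differ between the starts of a gene, and which start these cells use was not measured. The outer Insig2 window, not shown, held CCAAT at −136 and −29 and its reverse complement at −46, without TCACCC, and the innermost one held the reverse complement of TCACCC at −44, without CCAAT. Of the other 2 Srebf1 windows, neither held TCACCC and the outer one held CCAAT at −166. Of all 32851 RefSeq windows of this length, 16.2% held TCACCC, 37.4% held CCAAT and 7.15% held CACGTG on either strand, against 5, 5 and 3 of the 12 windows of these genes. The 2 Scap windows overlap, and 1 CACGTG site lies in both and is counted for each. TCACCC was added after these same windows had been read, so its 5 of 12 is no test against the 16.2%. Each printed window holds TCACCC, so the printed starts do not stand for all 12. The longer sterol response element TCACNCCAC was in 1.24% of all windows and in 0 of the 12. GTAAACA, the core of the FOXO site, was in 3.65% of all windows and in 1 of the 12, that of Mbtps1. GGGCGG, the SP1 box, was in 35.7% of all windows and in 9 of the 12, and none of its matches overlapped the capitals shown. The Scap windows share a GGGCGG match as well. A match describes the letters of the window and says nothing of binding in these cells.

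Gene counts summed to between 15429688 and 19010986 per library. The common biological coefficient of variation was 4.92%, so small differences could pass the test. Insr, the targeted gene, was lower in IRKO than in IRflox without overlap in each treatment, by log2 −0.61 with vehicle, −0.78 with insulin and −0.68 with IGF-1 (edgeR, adjusted p 3e-10, 1.56e-12 and 1.17e-10). Counts cover the whole gene, and the labels do not name the deleted exons. All 10 astrocyte markers were measured, and their summed level lay between 4131 and 4983 CPM (the gene's count relative to the TMM-scaled size of its library) over all libraries. The 12 microglia markers summed to 1166 to 1646 CPM, and the 8 markers of the oligodendrocyte lineage to 242.5 to 434 CPM, mostly Olig1 and Olig2. The 7 neuron markers summed to 121.9 to 172.1 CPM, the 6 fibroblast and mural markers to 280.5 to 358.3 CPM, and the 4 endothelial markers to 3.03 to 6.95 CPM. Within these lists, Rbfox3, Snap25, Mog and Cldn5 had at most 7, 6, 5 and 1 counts in any library, whereas Stmn2 had 1033 to 1736, Map2 699 to 1169, Gad1 136 to 282 and Flt1 41 to 103. In such bulk samples, fewer cells of a type and less RNA per cell cannot be told apart.

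The members covered a wide range of levels. Per kilobase of exon, vehicle-treated IRflox cells had most Srebf2 (45.9 ± 1.79 CPM per kb, SD, n = 4) and Insig1 (45.0 ± 1.49). The libraries of these 2 genes overlapped, in IRKO cells as well. Srebf1 followed at 30.4 ± 2.11 and Scap at 26.8 ± 1.35, and these overlapped in IRflox but not in IRKO cells (28.3 ± 0.898 and 25.0 ± 1.23). Then came Insig2 at 20.3 ± 1.04 CPM per kb, Mbtps1 at 15.2 ± 0.138 and Mbtps2 at 4.36 ± 0.191, with no overlap between neighbours. In each of the 4 ligand-treated groups the order was Insig1, Srebf2, Srebf1, Scap, Insig2, Mbtps1, Mbtps2, and no neighbours overlapped. On this scale Insig1 thus stood alone at the top after treatment, at 90.1 ± 3.34 CPM per kb with insulin and 101 ± 5.76 with IGF-1 in IRflox cells. Exon length here merges all annotated exons of a gene, and which transcripts these cells use was not measured. The order of the genes depends on this divisor. Without it, Scap (199 CPM) and Mbtps1 (159.7 CPM) lay above Insig1 (139 CPM) in vehicle-treated IRflox cells.

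**Figure D1:**
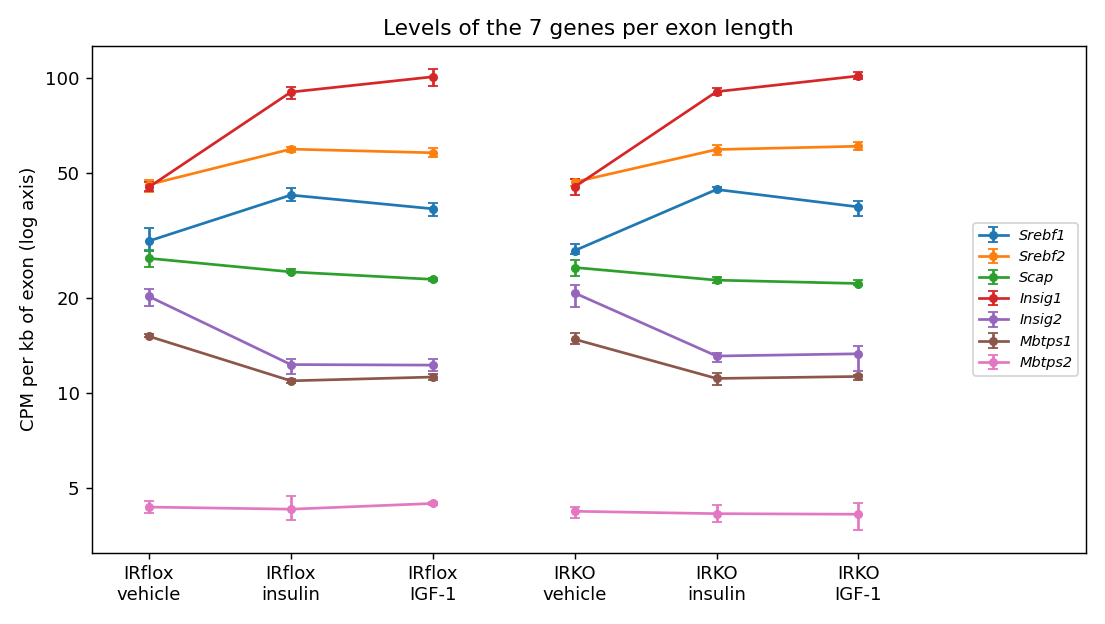
Levels of the 7 genes per kilobase of exon (CPM per kb, log axis) in the 6 groups; points are means of 4 libraries, whiskers run from the lowest to the highest library, and lines join the groups of a genotype. Insig1 lay level with Srebf2 in vehicle-treated cells and above every other member in the ligand-treated groups, and Mbtps2 was lowest in each group.

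Some of the counts have limits from the annotation. Mbtps2 (ENSMUSG00000046873, chrX:157535371-157598715, − strand) shares 28.4% of its exon length with Yy2 on the same strand, a gene with 61 to 119 counts per library, so its level is uncertain. Scap (ENSMUSG00000032485, chr9:110333288-110384950, + strand) shares 13.2% of its exon length with a transcript on the opposite strand, and these libraries do not mark strand. Srebf1 (ENSMUSG00000020538, chr11:60199089-60222581, − strand) shares 1.94% with Rai1 on the opposite strand, and its counts sum the transcripts of SREBP-1a and SREBP-1c. Srebf2 (ENSMUSG00000022463, chr15:82147181-82205379, + strand) hosts Mir33, which shares no exon sequence with it and had 0 to 3 counts. Insig1 (ENSMUSG00000045294, chr5:28071363-28078662, + strand), Insig2 (ENSMUSG00000003721, chr1:121304353-121332589, − strand) and Mbtps1 (ENSMUSG00000031835, chr8:119508156-119558735, − strand) share no exon sequence with another annotated gene.

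Insulin and IGF-1 each moved 6 of the 7 genes, in the same directions in IRflox and IRKO cells. Srebf1, Srebf2 and Insig1 rose, Scap, Insig2 and Mbtps1 fell, and Mbtps2 did not pass the test. This held in each of the 4 comparisons with vehicle (edgeR quasi-likelihood test, Benjamini-Hochberg adjusted p under 0.05). In each, the 6 genes had no overlap between treated and vehicle libraries. The share of all tested genes without such overlap was not computed, so this separation is not shown to be particular to the members. The ligands moved much of the transcriptome: the share of all tested genes called was 45.7% for insulin and 50.8% for IGF-1 in IRflox cells, and 46.4% and 52.0% in IRKO cells. By direction, 24.3% of all genes were called higher and 21.4% lower for insulin in IRflox cells, and 26.4% and 24.4% for IGF-1. In IRKO cells these shares were 24.7% and 21.7% for insulin and 26.9% and 25.1% for IGF-1. The members' count of 6 of 7 is over few genes. The median log2 change over the 7 was −0.02, 0.04, −0.02 and −0.03, and over all genes it was within 0.01 of 0. The insulin and IGF-1 comparisons of a genotype share their vehicle libraries.

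**Figure D2:**
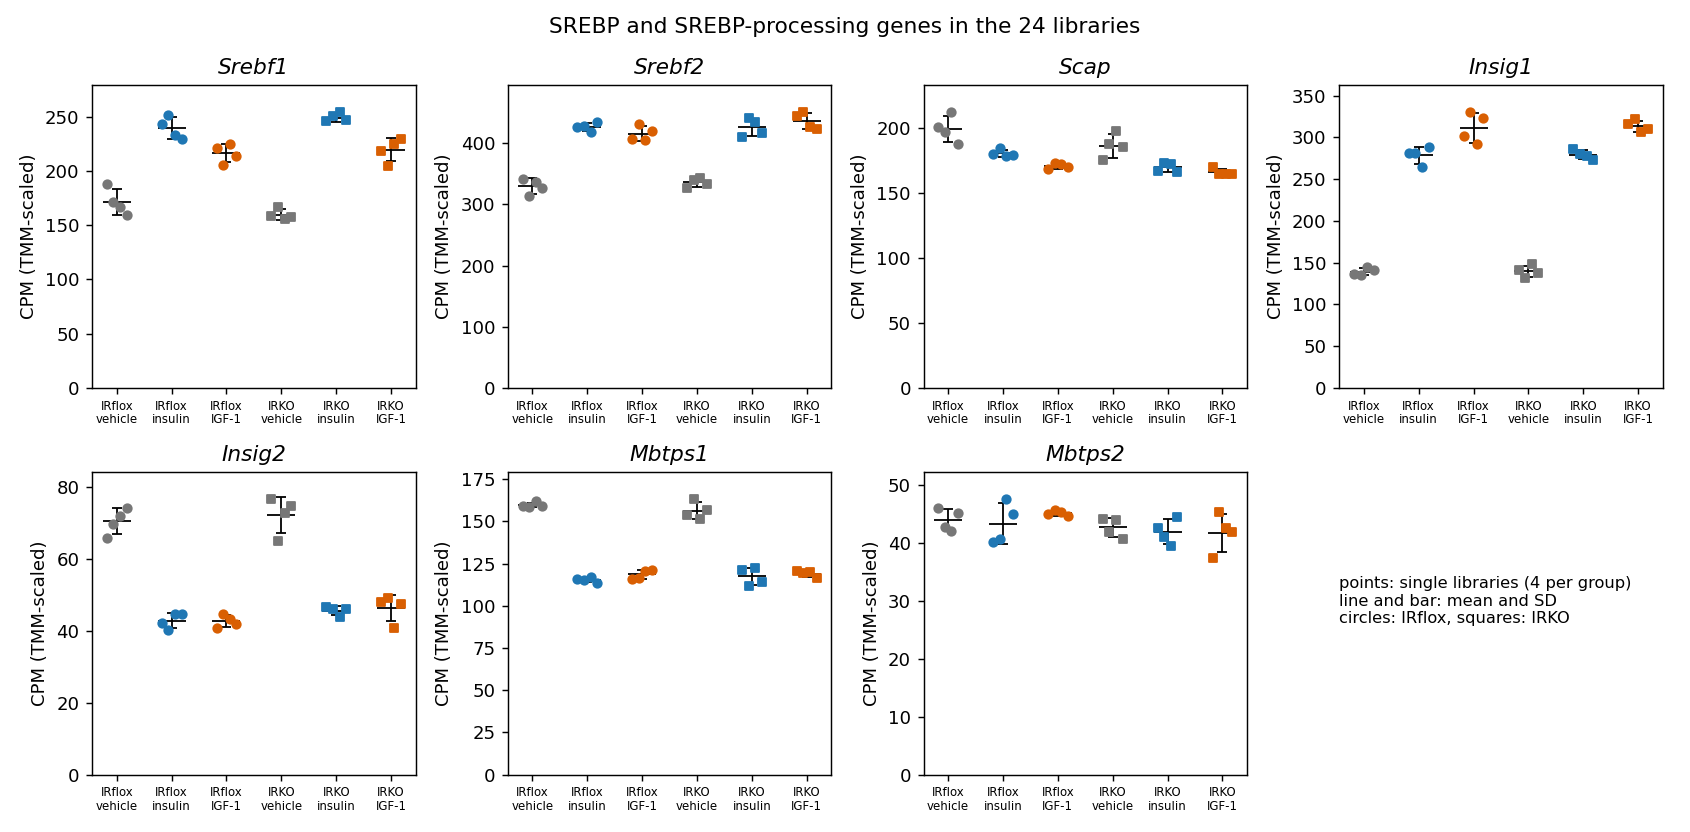
CPM of each gene in each of the 24 libraries, by group (points), with the mean and SD of each group; each axis starts at 0. Srebf1, Srebf2 and Insig1 were higher, and Scap, Insig2 and Mbtps1 lower, in all ligand-treated libraries than in the vehicle libraries of the same genotype, whereas the Mbtps2 groups overlapped.

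**Figure D3:**
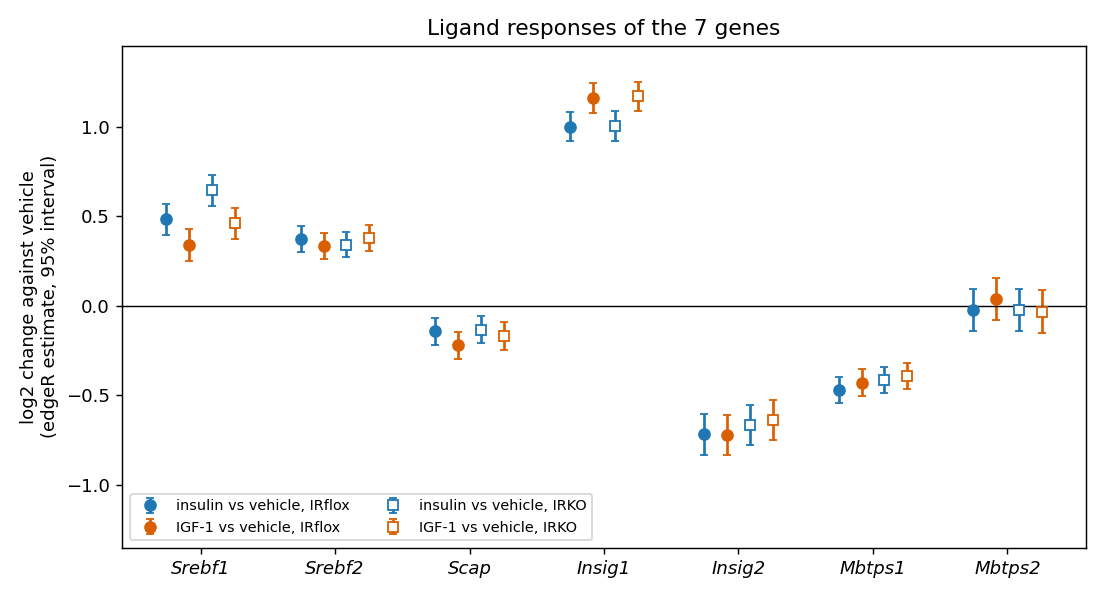
Log2 changes of the 7 genes under each ligand, relative to vehicle cells of the same genotype, with 95% intervals from the edgeR fit. Insig1 rose by 1.00 to 1.17, Insig2 fell by 0.64 to 0.72, and the 4 intervals of Mbtps2 include 0.

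Of the transcription factors, Srebf2 was the more abundant. In IRflox cells its level was 342, 313, 337 and 326 CPM in the vehicle libraries, 426, 428, 418 and 434 with insulin, and 407, 431, 404 and 419.7 with IGF-1. In IRKO cells it was 327, 339.9, 343 and 333 with vehicle, 409.6, 441, 434 and 417 with insulin, and 444, 450.1, 427 and 423 with IGF-1. Every treated library lay above every vehicle library, and the insulin and IGF-1 libraries overlapped in both genotypes. The increases were small, log2 0.37 (SE 0.036) with insulin and 0.33 with IGF-1 in IRflox cells, and 0.34 and 0.38 in IRKO cells (edgeR, adjusted p between 6.6e-12 and 1.58e-10).

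Srebf1, the gene known in liver for its response to insulin, had 188, 171, 166 and 159.6 CPM in the IRflox vehicle libraries. It had 243, 252, 233 and 229 CPM with insulin and 221, 206, 225 and 214 with IGF-1. Both treated groups lay above the vehicle group, and the insulin group lay above the IGF-1 group. In IRKO cells the vehicle libraries had 158, 167, 155 and 158 CPM, the insulin libraries 246, 251, 254 and 247, and the IGF-1 libraries 219, 205, 225 and 229. The 3 IRKO groups were separate as well. The log2 change with insulin was 0.48 (SE 0.043; 1.40-fold) in IRflox and 0.64 (SE 0.043; 1.56-fold) in IRKO cells, and with IGF-1 it was 0.34 and 0.46 (edgeR, adjusted p between 3.83e-16 and 1.03e-08).

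Scap, the escort of both factors, changed least of the 6. Its IRflox level was 201, 197, 212 and 188 CPM with vehicle, 180.1, 184, 178 and 179 with insulin, and 168, 173, 172 and 170.0 with IGF-1. In IRKO cells it was 175, 187, 197 and 186 CPM with vehicle, 167, 173, 173 and 166 with insulin, and 170.3, 164, 164 and 164 with IGF-1. The gap between the lowest vehicle library and the highest treated library was small, and the vehicle libraries were the most spread (SD 10.1 CPM in IRflox and 9.16 in IRKO). Scap fell by 0.14 (SE 0.038) and 0.22 on the log2 scale with insulin and IGF-1 in IRflox cells, and by 0.13 and 0.17 in IRKO cells (edgeR, adjusted p 0.00171, 3.7e-06, 0.00332 and 0.000237).

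The INSIG genes, whose proteins both retain SCAP, moved in opposite directions. Insig1 showed the largest change of the 7. Its IRflox libraries had 136, 135, 145 and 142 CPM with vehicle, 281, 281, 264 and 288 with insulin, and 302, 329.8, 292 and 323 with IGF-1. Its IRKO libraries had 141, 131, 148 and 138 CPM with vehicle, 287, 280.3, 278 and 273 with insulin, and 316, 322, 307 and 310.0 with IGF-1. The treated libraries were far from the vehicle libraries, and in each genotype all IGF-1 libraries lay above all insulin libraries. The log2 change was 1.00 (SE 0.041) with insulin and 1.16 with IGF-1 in IRflox cells, and 1.00 and 1.17 in IRKO cells (edgeR, adjusted p between 1.2e-25 and 4.04e-23).

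Insig2, the isoform that is not known as a general SREBP target, had 65.7, 69.7, 72.0 and 74.2 CPM in the IRflox vehicle libraries. With insulin it had 42.0, 40.1, 44.5 and 44.6 CPM, and with IGF-1 40.8, 44.8, 43.2 and 41.9. The IRKO libraries had 76.5, 65.0, 72.6 and 74.6 CPM with vehicle, 46.5, 45.9, 43.8 and 46.1 with insulin, and 48.0, 49.0, 40.8 and 47.5 with IGF-1. The treated groups overlapped each other and lay wholly below vehicle. Insig2 fell by 0.72 (SE 0.056) on the log2 scale with insulin and by 0.72 with IGF-1 in IRflox cells, and by 0.66 and 0.64 in IRKO cells (edgeR, adjusted p between 2.4e-14 and 6.14e-13). The counts cover all Insig2 transcripts and do not separate its 3 RefSeq starts.

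The 2 proteases behaved differently. Mbtps1, which makes the first cut, had 159, 159, 162 and 159 CPM in IRflox vehicle libraries, 116, 115, 117 and 113 with insulin, and 116, 117, 121 and 121 with IGF-1. In IRKO cells it had 154, 163, 151 and 157 CPM with vehicle, 121, 112, 122 and 114 with insulin, and 120.4, 119.6, 120.1 and 116 with IGF-1. All treated libraries lay below all vehicle libraries. Mbtps1 fell by 0.47 (SE 0.036) and 0.43 on the log2 scale with insulin and IGF-1 in IRflox cells, and by 0.41 and 0.39 in IRKO cells (edgeR, adjusted p between 3.6e-14 and 3.69e-12).

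Mbtps2, which makes the second cut within the membrane, stayed between 37.4 and 47.6 CPM in all 24 libraries. Its IRflox libraries had 46.1, 42.8, 42.0 and 45.2 CPM with vehicle, 40.2, 40.7, 47.6 and 45.0 with insulin, and 45.0, 45.8, 45.4 and 44.7 with IGF-1. The groups overlapped in each of the 4 ligand comparisons. The log2 change with insulin in IRflox cells was −0.02 (95% interval −0.14 to 0.09; edgeR, adjusted p = 0.783), and the other 3 changes were 0.04, −0.02 and −0.03 with intervals between −0.15 and 0.15. These intervals leave room for small changes and not for one of the size of Mbtps1.

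Levels of 2 members within the same library were also compared, per exon length, since such a ratio does not depend on how libraries are scaled. The size of a ratio depends on the merged exon lengths, and its relative change between groups does not. In IRflox cells the Insig1 to Insig2 ratio was 2.22 ± 0.0817 (SD, n = 4) with vehicle, 7.32 ± 0.512 with insulin and 8.21 ± 0.452 with IGF-1. In IRKO cells it was 2.17 ± 0.119, 6.89 ± 0.201 and 7.63 ± 0.535. The Insig1 to Scap ratio was 1.68 ± 0.0881 with vehicle in IRflox cells, 3.71 ± 0.134 with insulin and 4.39 ± 0.243 with IGF-1. Both ratios were higher in every treated library than in any vehicle library of the genotype. The Mbtps1 to Mbtps2 ratio was 3.48 ± 0.173 with vehicle in IRflox cells, 2.56 ± 0.208 with insulin and 2.52 ± 0.0752 with IGF-1, again without overlap, and it carries the uncertainty of the Mbtps2 count. The Srebf1 to Srebf2 ratio went from 0.606 ± 0.0208 to 0.747 ± 0.0173 with insulin in IRKO cells, without overlap. In IRflox cells it was 0.663 ± 0.0414 with vehicle and 0.715 ± 0.0326 with insulin, and these overlapped. The 13 ratio comparisons without overlap had the smallest p that 4 against 4 libraries allow in an exact two-sided permutation test (p = 0.0286, adjusted p = 0.0615 over 28 tests), so no ratio could pass 0.05 after adjustment in this set of tests.

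**Figure D4:**
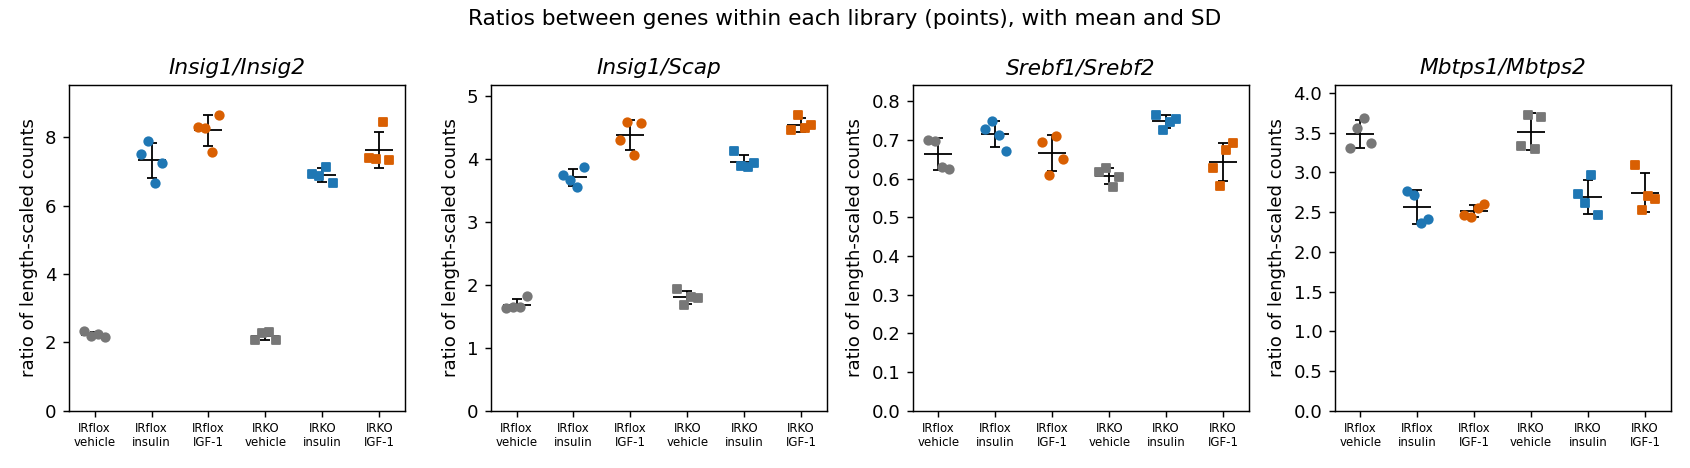
Ratio of 2 members within a library, per kilobase of exon, in the 6 groups; points are libraries, lines and bars are mean and SD, and each axis starts at 0. The Insig1 to Insig2 ratio was 2.07 to 2.33 in the vehicle libraries and 6.65 to 8.66 in the ligand-treated libraries, and the Mbtps1 to Mbtps2 ratio was lower with each ligand.

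The direct comparison of the ligands at equal dose and time called Insig1 in both genotypes, and Srebf1 in IRKO cells in the edgeR fit of all groups. Of all tested genes, 2.59% were called between insulin and IGF-1 in IRflox cells (1.49% higher and 1.10% lower with insulin) and 2.67% in IRKO cells (1.06% higher and 1.61% lower). The 404 genes called in IRflox cells became 247 without insulin replicate 2 and 250 without IGF-1 replicate 4, and the 417 in IRKO cells became 267 and 277 without insulin replicates 1 and 3. Insig1 was lower with insulin than with IGF-1 by log2 −0.16 (SE 0.040) in IRflox and −0.17 (SE 0.040) in IRKO cells (edgeR, adjusted p 0.0157 and 0.0108). Srebf1 was higher with insulin by log2 0.18 (SE 0.042; edgeR, adjusted p = 0.00764) in IRKO cells. In IRflox cells its difference was 0.14 (SE 0.042), and the test was not passed (edgeR, adjusted p = 0.0548), although the groups did not overlap. That IRflox difference passed in 7 of 31 alternatives, among them DESeq2 (0.14, adjusted p = 0.0275), no filter on low counts (0.0374), and edgeR without IRflox vehicle replicate 1 (0.0302), IRflox insulin replicate 4 (0.035) or IRKO IGF-1 replicate 2 (0.0488). The difference of the ligands is thus not shown to be particular to IRKO cells. The IRflox call of Insig1 was lost without IGF-1 replicate 2 (adjusted p = 0.0995), IGF-1 replicate 4 (0.0787) or insulin replicate 3 (0.0839). The IRKO call of Srebf1 was lost without IGF-1 replicate 2 (edgeR, adjusted p = 0.0636). The other 5 genes did not pass between the ligands in either genotype. Scap was closest, at 0.08 in IRflox cells (unadjusted p = 0.0441; edgeR, adjusted p = 0.345), and its groups did not overlap. The share of all tested genes without overlap between the ligands was not computed. The separation of Srebf1 and Scap in IRflox cells is thus not shown to be particular to them. The 95% intervals of the 5 genes lay between −0.178 and 0.155.

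Deletion of the insulin receptor was compared at each treatment, and no member passed the test with edgeR or DESeq2. At an unadjusted edgeR p under 0.05 there were 2 of the 7 with vehicle, 1 with insulin and 1 with IGF-1. Over all 15599 tested genes there were 3224, 3669 and 3036 at that threshold. Of all genes, 7.86% were called between IRKO and IRflox cells with vehicle (3.76% higher and 4.10% lower in IRKO), 10.5% with insulin (4.94% and 5.53%) and 6.76% with IGF-1 (3.62% and 3.15%). With vehicle, Srebf1 was 171 ± 11.9 CPM (SD, n = 4) in IRflox and 159.6 ± 5.06 in IRKO cells, a log2 difference of −0.10 (95% interval −0.19 to −0.01; edgeR, adjusted p = 0.159). Scap differed by −0.10 with vehicle (interval −0.17 to −0.02; edgeR, adjusted p = 0.109) and by −0.09 with insulin (interval −0.16 to −0.01; adjusted p = 0.143). The insulin-treated Scap libraries of the genotypes did not overlap, 178 to 184 CPM in IRflox and 166 to 173 in IRKO. How many of all tested genes separate in this way was not computed, so the separation is not shown to be particular to Scap. The 1 with IGF-1 was Insig2, higher in IRKO by 0.12 (edgeR, adjusted p = 0.251). Insig1 differed little at each treatment, by 0.00 with vehicle (interval −0.08 to 0.09), 0.00 with insulin and 0.01 with IGF-1. With IGF-1, Mbtps1 was closer to 0 (0.0059).

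The genotypes were also compared in the size of the ligand response. No gene of the 15599 was called for either ligand in the edgeR test (0.00%), with 838 and 822 at an unadjusted p under 0.05. DESeq2 called 0 for insulin and 2 for IGF-1, none of them a member. Among the members the largest value was that of Srebf1, whose insulin response was larger in IRKO than in IRflox cells by log2 0.16 (95% interval 0.04 to 0.28; unadjusted p = 0.0117; edgeR, adjusted p = 0.884). Its IGF-1 response differed by 0.12 (interval −0.00179 to 0.244; edgeR, adjusted p = 0.935). For Insig1 the difference was 0.00 (interval −0.11 to 0.12) for insulin and 0.01 (interval −0.11 to 0.12) for IGF-1. The summed microglia markers were higher in IRKO vehicle libraries (1630 to 1646 CPM) than in IRflox ones (1305 to 1430 CPM), with 10 of the 12 called higher. They were lower with each ligand than with vehicle in both genotypes (1166 to 1296 CPM in treated IRflox and 1394 to 1489 in treated IRKO libraries). The summed oligodendrocyte lineage markers were 242.5 to 265.1 CPM with vehicle, 319.2 to 354.9 with insulin and 362.2 to 392.1 with IGF-1 in IRflox cells, where Olig1 and Olig2 rose. In IRKO cells they were 263.1 to 280.5, 370.7 to 376.9 and 401.4 to 434 CPM. Of the 6 lineage markers tested, 3 rose and 1 fell with insulin in IRflox cells, and 2 rose and 2 fell with IGF-1. In IRKO cells 2 rose and 1 fell with insulin, and 3 rose and 2 fell with IGF-1. The summed neuron markers were 144.1 to 147 CPM with vehicle and 157.8 to 172.1 in treated IRflox libraries, and 121.9 to 133.1 CPM with vehicle and 132.1 to 144.3 in treated IRKO libraries. The vehicle libraries of the genotypes did not overlap. Of the 5 neuron markers tested, 1 rose and 1 fell with each ligand in IRflox cells, and 1 rose and 2 fell in IRKO cells. Their median log2 changes were −0.14 with insulin and −0.14 with IGF-1 in IRflox cells, and −0.42 and −0.20 in IRKO cells. The summed astrocyte markers were lower with IGF-1 than with vehicle without overlap, 4131 to 4268 against 4503 to 4785 CPM in IRflox and 4453 to 4493 against 4728 to 4983 CPM in IRKO cells. Of the 10, 6 fell and 2 rose with IGF-1 in IRflox cells. The sum of 7 transcripts known from liver was 5.22 to 14.8 CPM with insulin, 0.681 to 4.77 with IGF-1 and 0.574 to 0.896 with vehicle in IRflox libraries. In IRKO cells it was 1.12 to 10.6, 1.33 to 4.02 and 0.800 to 10.3 CPM. Where these transcripts came from was not measured. The part of these cells and transcripts in the members' changes was not tested.

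Most genes that SREBPs are known to activate rose in the same libraries. All 24 genes of cholesterol synthesis and uptake rose in each of the 4 ligand comparisons, with median log2 changes of 1.21 (insulin) and 1.34 (IGF-1) in IRflox and 1.18 and 1.36 in IRKO cells. Over all tested genes the median change was within 0.01 of 0, and 24.3% to 26.9% rose. The gene lists were chosen with earlier results of these data known, so their contrast with all genes is no independent test. In IRflox cells with insulin, Lss, which closes the sterol ring, rose by 1.44 (SE 0.043), Cyp51, which demethylates lanosterol, by 1.30 (SE 0.038), Hsd17b7 by 1.81 (SE 0.056) and Hmgcs1 by 1.15 (SE 0.036). These changes exceeded that of Srebf2 itself, 0.37. Between the ligands, 11 of the 24 were lower with insulin than with IGF-1 in each genotype, among them Lss (−0.26 in IRflox and −0.31 in IRKO cells) and Hsd17b7 (−0.35 and −0.33). None was higher. With vehicle, 8 of the 24 were higher in IRKO than in IRflox cells, 4 were with insulin and 7 with IGF-1, and none was lower. Over all tested genes 3.76%, 4.94% and 3.62% were higher in IRKO cells. The IRKO differences were small, a median of 0.11 with vehicle over the 24.

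Of 16 fatty acid synthesis genes, 14 rose with each ligand in each genotype, with medians between 0.82 and 0.87. In IRflox cells with insulin, Scd1 rose by 1.09 (SE 0.033), Scd2 by 0.85, Acaca by 1.04 and Fasn by 1.00; these make and desaturate long-chain fatty acids. Acacb, a carboxylase of the mitochondrial surface, fell by 0.71 (SE 0.20), and Gpam, which starts glycerolipid synthesis, fell by 0.14. In IRKO cells neither passed with insulin (−0.41 and −0.09), and both fell with IGF-1. Between the ligands, 1 of the 16 was higher and 1 lower with insulin in IRflox cells, and 1 was higher and 5 lower in IRKO cells. Over all tested genes 1.49% were higher and 1.10% lower in IRflox, and 1.06% and 1.61% in IRKO cells. Gpam was higher with insulin in IRflox and IRKO cells (0.23 and 0.19). Elovl6, a fatty acid elongase, was lower with insulin (−0.19 and −0.25). In IRKO cells Acly, Acaca, Fasn and Scd1 were lower with insulin too. The part of Srebf1 in these differences was not tested.

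**Figure D5:**
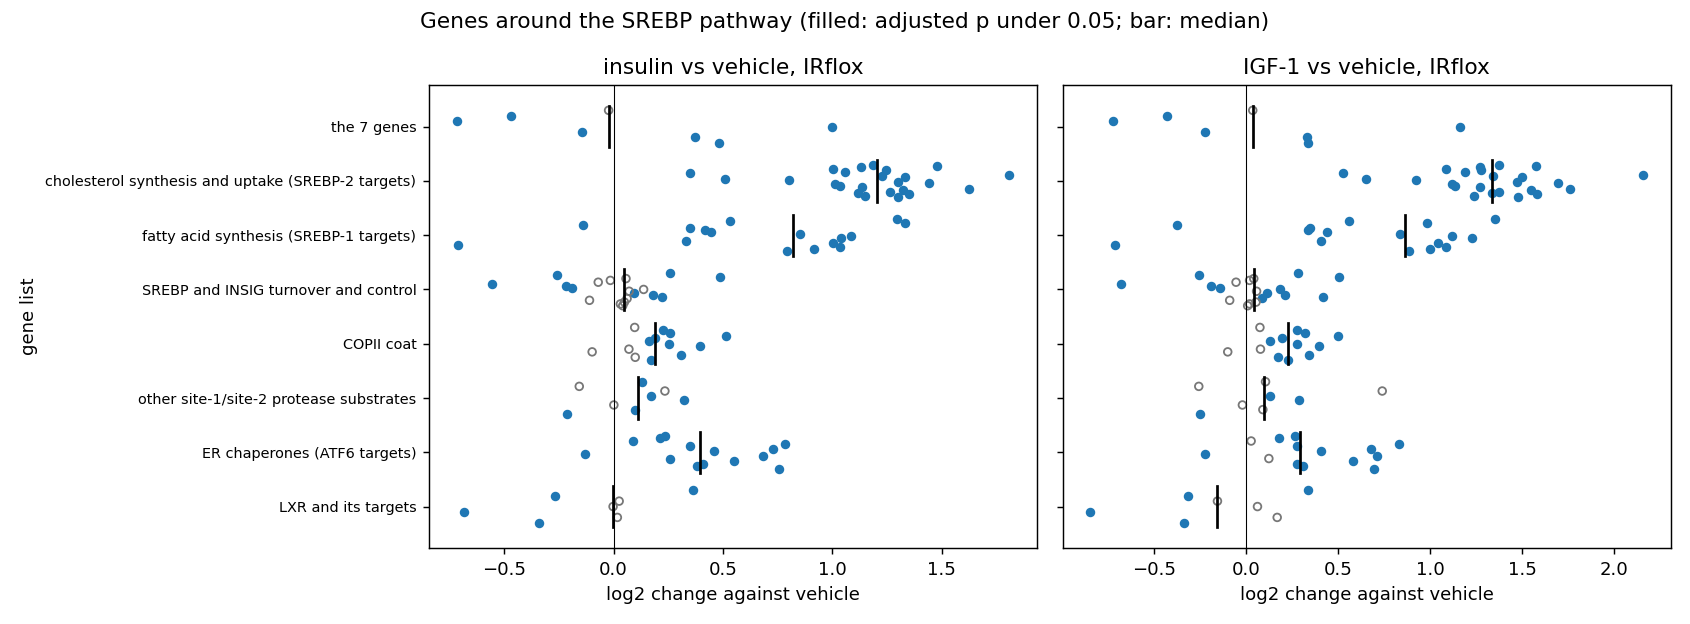
Log2 changes in IRflox cells for the genes of each list, insulin on the left and IGF-1 on the right; points are genes (filled where the adjusted p is under 0.05) and bars are list medians. The cholesterol list had medians of 1.21 and 1.34 with all 24 genes higher, and the list of SREBP and INSIG turnover genes had medians near 0.

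Of 19 genes for turnover and control of SREBPs and INSIGs, 5 rose and 4 fell with insulin in IRflox cells (median 0.05). These shares were near those over all tested genes, of which 24.3% rose and 21.4% fell. Paqr3, which anchors the SCAP-SREBP complex to the Golgi, fell by 0.56 (SE 0.066), Marchf6, an E3 ligase of the endoplasmic reticulum, fell by 0.22, and Crtc2, a transcriptional coactivator that is also known to bind COPII proteins, fell by 0.26. Lpin1, a phosphatase whose nuclear form restrains SREBPs, rose by 0.49 (SE 0.045). With insulin in IRKO cells, and with IGF-1 in IRflox and IRKO cells, 7, 7 and 8 rose and 4 fell. Of 13 COPII coat genes, whose vesicles carry the complex, 9 and 10 rose with insulin and IGF-1 in IRflox cells and 8 and 9 in IRKO cells, and none fell. Sec24d, a cargo adaptor, rose by 0.51 (SE 0.045) with insulin in IRflox cells, Sec23b by 0.40, Sec13 by 0.31 and Sec31a by 0.26.

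Site-1 and site-2 protease also cut other membrane proteins. Of 8 genes for such substrates, 4 rose with insulin and 2 with IGF-1 in IRflox cells, and 3 and 4 in IRKO cells, and 1 fell in each comparison. Over all tested genes 24.3% and 26.4% rose in IRflox and 24.7% and 26.9% in IRKO cells. With insulin in IRflox cells, Atf6, a sensor of unfolded proteins, fell by 0.21 (SE 0.043). In that comparison Creb3l1 rose by 0.32 (SE 0.060), Creb3l2 by 0.17 and Atf6b by 0.10. With vehicle, Creb3l1 was lower in IRKO than in IRflox cells by log2 −0.66 (edgeR, adjusted p = 1.02e-09). A list of 14 genes that ATF6 is known to activate holds chaperones of the endoplasmic reticulum and other genes, among them Xbp1. Of these 14, 13 rose with insulin and 11 with IGF-1 in IRflox cells, and 13 and 12 in IRKO cells. With each ligand 1 fell in IRflox cells and none in IRKO cells. Hspa5, the main chaperone, rose by 0.75 (SE 0.037) with insulin in IRflox cells, Manf by 0.78, Xbp1 by 0.68 and Dnajc3 by 0.46. LXR, a nuclear receptor for oxysterols, is known to drive Srebf1. Of 7 genes for LXR and its targets, 1 rose and 3 fell with insulin in IRflox cells, with IGF-1 in IRflox cells and with insulin in IRKO cells, and 2 rose and 4 fell with IGF-1 in IRKO cells. With insulin in IRflox cells, Lpcat3 rose by 0.36, while the sterol exporter Abca1 fell by 0.68 (SE 0.041), Nr1h2 by 0.34 and Apoe by 0.27. Srebf1 rose in the same libraries, and the part of LXR in its rise was not tested.

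Among 12086 genes with a mean of at least 2 log2 CPM, the pattern most like that of Insig1 over the 24 libraries was that of Cyp51 (Pearson r 0.997), followed by Hmgcs1 (0.995), Mfsd2a, Msmo1 and Acly. The closest patterns to Srebf2 were those of Hyou1 (0.981), Ccnd2, Dhcr7, Fasn and Acss2. For Srebf1 they were Egln3 (0.956), Sez6, St8sia2, Ttyh3 and Prr7, none of which is in the lists above. For Insig2 they were Clk1 (0.973), Ampd3, Fam13b, Rmnd5a and Tcp11l2, for Mbtps1 Cdkn1b (0.983) and Prelp, and for Scap Tmbim6 (0.930), Rnf216 and Cx3cl1. Mbtps2 had no close match, with Smc6 at 0.734 the nearest. The 24 libraries fall into vehicle and treated groups, so each such r mostly follows the step between them and is a description.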

How the data were processed

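Poly-A RNA was sequenced as unstranded 150 bp pairs, per the labels. The authors deposited raw gene counts, 1 file per library. The submitters' processing notes list mm10, STAR 2.7.7a, R 4.0.4, DESeq2 and edgeR, with no role given. Which program and annotation release gave the counts is not given in the sources used here. The files end in 3 lines that name no gene, which were dropped. Reads outside genes were 14.5 to 23.2% of reads, and gene counts exceeded reads in genes by 4.55 to 4.93%, so reads could count for several genes. All pairs of replicates differed beyond sampling noise.

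The test was edgeR 4.0.16 (R 4.3.3): expression filter (minimum count 10, minimum total 15), TMM factors (0.982 to 1.018), and a quasi-likelihood fit of 1 mean per group to all 24 libraries. P-values were Benjamini-Hochberg adjusted over 15599 genes, called under 0.05. The steps were tested on simulated data. CPM used TMM-scaled library sizes, and exon lengths and coordinates are those of GENCODE M21 (GRCm38), which held 32663 of the 32719 identifiers. Alternatives were DESeq2 1.42.0, other scalings and filters, a replicate block, a fit of only the groups compared and leaving out each library. Named genes were the 7, Insr, up to 4 genes per list with the lowest p for insulin in IRflox cells, and the closest patterns; list genes named for the other comparisons, and Olig1 and Olig2, were chosen after their values were seen. The members and lists were chosen with earlier results of these data known. 1 gene of the closest patterns is not reported here.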

Additional observations from a re-analysis of the deposited data

Results flagged for a closer look

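Of 66 sets of 4 libraries, 4 held a library far from the other 3 (the gap to the nearest as a share of the range of the set, above Dixon's critical value), and chance flags about 1 set in 20. IGF-1-treated IRKO Scap had 170.3 CPM in replicate 1 and 164 in the other 3 (0.979). Mbtps1 in IRflox vehicle cells had 162 CPM in replicate 3 and 159 in the others (0.8291), a narrow range. The Insig1 to Insig2 ratio in IGF-1-treated IRKO cells was highest in 1 library (8.43, against 7.33 for the lowest; 0.951), replicate 3, whose Insig2 level was 40.8 CPM. The Insig1 to Scap ratio in IRflox vehicle cells was highest in replicate 4 (1.82, against 1.63 for the lowest; 0.903), whose Scap level was 188 CPM.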

How the results depend on the processing

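All 24 ligand calls of the members kept their direction and passed in each of 31 alternatives (7 other settings and leaving out each of 24 libraries; largest adjusted p 0.0208), and Mbtps2 passed in none. Uncalled member values changed sign in 18 cases, none above 0.0466 in size. For Srebf1, insulin against IGF-1 in IRflox cells passed with DESeq2 (0.14, adjusted p = 0.0275), without a filter (0.14, 0.0374), at a mean CPM of at least 1 (0.15, 0.0481) and in a fit of only the groups compared (0.15, 0.0438), so that the members called there were 2 rather than 1 under each of these. Leaving out a library gave log2 0.12 to 0.17 for it and 0 to 2 members called. It gave −0.20 to −0.13 for Insig1 in that comparison, 0.15 to 0.20 for Srebf1 in IRKO cells with 1 to 2 members called, and 247 to 447 genes called in IRflox (main value 404) and 267 to 468 in IRKO cells (417). For IRKO against IRflox with vehicle, leaving out a library gave 0 to 1 members called. The 1 was Scap (range −0.125 to −0.0665), without IRflox vehicle replicate 4 (−0.12, adjusted p = 0.05). Genes called for a genotype difference in the insulin response were 0 to 4 when a library was left out and 19 without a filter. For IGF-1 they were 2 with DESeq2 and 19 without a filter. The cause was not tested. Replicate numbers did not pair the libraries (correlation of same-numbered deviations −0.115 to 0.061), and with the replicate block 6 members were called in each ligand comparison, with 0.48 for Srebf1 and 1.00 for Insig1 with insulin in IRflox cells.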
